A study of Sus scrofa with 12 samples.

Results

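Among the genes that rose steeply from the con-2c to the con-4c libraries of porcine embryos, 74 carried only an Ensembl identifier and no symbol in the count table. They were selected on their con-4c and con-2c levels in CPM, the count of a gene scaled to the total count of its library. A gene was taken when its name in the table was an ENSSSCG identifier, its mean in con-4c was at least 20 CPM, and that mean was at least 8 times its mean in con-2c. The table held 29329 genes, 13866 of them unnamed, so the rule took 0.534% of the unnamed genes. Since the rule used con-4c and con-2c, the difference between those groups is described here without a test. The tested comparison is si-4c against si-2c, whose 6 libraries the rule did not use. The rule and the tests were, however, chosen with earlier results of these data known.

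The embryos were pig (Sus scrofa) embryos made by in vitro fertilisation, and each library was a pool of several embryos profiled by SMART-seq, in which polyadenylated RNA is copied from its tail into full-length cDNA and amplified before sequencing. There were 4 groups of 3 libraries. The control groups con-2c and con-4c were labelled as blank control, and the groups si-2c and si-4c came from embryos that received Si-CCNB2 by microinjection, a short interfering RNA against cyclin B2 (CCNB2), a mitotic partner of the kinase CDK1. All embryos, control ones included, shared the in vitro maturation, fertilisation and culture. Knockdown embryos were injected early after fertilisation. For the controls the sources differ: the labels give a blank control, while the study's methods call these embryos both normal and the negative control (NC) group of Si-CCNB2, and describe NC solutions prepared for microinjection with injection volumes kept alike between experimental and NC groups. If the controls of these libraries were not injected, injection and loss of CCNB2 cannot be told apart. No strain, sex or age of the embryos' parents is used. The stage in the title disagreed with the stage in the tissue label in all 12 libraries: libraries titled 2c had a tissue label of 4-cell embryos and libraries titled 4c one of 2-cell embryos. Group names below follow the titles and assign no stage.

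The fertilised egg starts with RNA stored by the oocyte and transcribes little of its own. At zygotic genome activation (ZGA) the embryo begins to transcribe its genome while stored maternal transcripts are cleared. In the pig the main wave of activation is usually placed at the 4-cell stage, and many transcripts that appear in such a wave come from loci with poor annotation. An identifier without a symbol says only that no gene name was assigned, not that the gene lacks a protein product.

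Library totals lay between 27785233 and 39510908 counts. CCNB2 separated the treatments: it had 412 ± 15.9 CPM for con-2c and 509.6 ± 49.9 CPM for con-4c, against 26.4 ± 5.67 CPM for si-2c and 38.3 ± 3.72 CPM for si-4c (SD, n = 3 each), so si-2c had 6.41% of the con-2c level and si-4c 7.51% of the con-4c level. This checks the treatment but not the stage. Oocyte markers were abundant: the 12 of 15 listed genes found in the table had sums of 21293 to 23105 CPM for con-2c, 22814 to 23670 CPM for si-4c, 13288 to 13640 CPM for con-4c and 14733 to 15553 CPM for si-2c, so their sum was low where the 74 genes were high. This sum was carried by BTG4, an adaptor of maternal mRNA deadenylation, with means of 16392 CPM for con-2c, 17638 CPM for si-4c, 8233 CPM for con-4c and 9204 CPM for si-2c. The other 11 genes summed to 5740 to 6458 CPM for con-2c, 5448 to 5809 CPM for si-4c, 5034 to 5469 CPM for con-4c and 5594 to 6314 CPM for si-2c. The si-2c and si-4c ranges overlapped, while the con-2c range lay above that of con-4c. Of the 12 genes 2 were called higher in the si-4c libraries (BTG4 and OOEP, edgeR) and 0 lower. Of the other 10, 3 had an adjusted p below 0.05 but less than a 2-fold change. These were ZP4, GDF9 and BMP15, with log2 fold changes of 0.75, 0.48 and -0.23 (edgeR adjusted p 9.87e-05, 0.00187 and 0.0212). The part of maternal RNA in the results was not tested. Markers of cumulus and granulosa cells (8 of 12 in the table) summed to 1.005 to 1.95 CPM for con-2c, 2.33 to 2.59 CPM for con-4c, 2.096 to 4.27 CPM for si-2c and 0.551 to 1.31 CPM for si-4c, so this sum was higher where the 74 genes were high. Without TNFAIP6, the most abundant, the other 7 genes summed to 0.652 to 1.95 CPM for con-2c, 1.19 to 1.36 CPM for con-4c, 1.29 to 3.70 CPM for si-2c and 0.551 to 1.31 CPM for si-4c, with overlap between con-2c and con-4c and between si-2c and si-4c. Of the 8 genes 4 were tested and 0 were called (edgeR): the means of TNFAIP6, PTX3, STAR and CYP19A1 were 1.01, 0.703, 0.921 and 0.587 CPM for si-2c against 0.0784, 0.0261, 0.318 and 0.426 CPM for si-4c, with adjusted p of 0.0619, 0.0817, 0.393 and 0.947. CYP19A1 had a higher mean in con-2c (0.636 CPM) than in con-4c (0.223 CPM), and FSHR was at most 0.556 CPM in any library. FOXL2, CYP11A1 and HAS2, also on this list, had means of 0.0233, 0.0233 and 0.0480 CPM for con-4c and 0 counts in the other groups. Of 10 sperm markers 4 were in the table. They summed to 6.10 to 8.99 CPM for con-2c, 10.8 to 15.8 CPM for con-4c, 12.7 to 19.5 CPM for si-2c and 8.68 to 10.3 CPM for si-4c. This sum too was higher where the 74 genes were high. Most of it was ODF2, a centrosomal gene with a wide range of expression. Without ODF2 the other 3 genes summed to 0 to 0.481 CPM for con-2c and 0.280 to 0.936 CPM for con-4c, which overlap. In the knockdown they summed to 0.689 to 1.63 CPM for si-2c and 0 to 0.219 CPM for si-4c. AKAP4, a protein of the sperm tail, was called lower in si-4c (edgeR adjusted p 0.0167), with means of 0.376 CPM for con-4c and 0.763 CPM for si-2c and 0 counts in con-2c and si-4c. The part of these cells in the results was not tested. In pooled embryos, fewer expressing cells and less RNA per cell cannot be told apart.

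The reference name table paired 1 of the 74 identifiers with a symbol. ENSSSCG00000025440 was listed there as ELOA, which encodes elongin A, a subunit of the elongin complex that helps RNA polymerase II move through genes. RefSeq places the gene of that symbol at chr6:81564792-81582049 in Sscrofa11.1, the build that the submitters' processing notes name, and lists it as protein coding. The other 73 identifiers had no entry, and the RefSeq table paired no row with an Ensembl identifier, so their position, type and length are not given. Without lengths the CPM of different genes cannot be compared as expression, and each gene is compared below with itself across groups.

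Of 559 unnamed genes with a con-4c mean of at least 20 CPM, 13.2% met the 8-fold requirement, against 2.46% of 4194 genes with a symbol. Over the whole table the order was the reverse, with 0.534% of the unnamed genes and 0.666% of the genes with a symbol meeting the rule. Just inside the level threshold were ENSSSCG00000042264, ENSSSCG00000016100 and ENSSSCG00000060174, with con-4c means of 20.03, 21.4 and 22.5 CPM, and just outside were ENSSSCG00000014929, ENSSSCG00000053689 and ENSSSCG00000021380, with 19.9, 19.5 and 18.4 CPM. Just inside the fold threshold were ENSSSCG00000033421, ENSSSCG00000013889 and ENSSSCG00000013607, at 8.52, 9.02 and 9.55 times the con-2c mean, and just outside were ENSSSCG00000035768, ENSSSCG00000049664 and ENSSSCG00000011952, at 7.82, 7.54 and 7.04 times. The group therefore had no gap at either edge. In con-4c the means of the 74 genes ran from 20.03 to 2476 CPM with a median of 52.6 CPM, 22 of them had at least 100 CPM, and the 10 with the highest means took 68.1% of their summed counts.

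Together the 74 genes took between 1.28% and 1.29% of all counts in the con-4c libraries. Their summed level was 12922, 12765 and 12820 CPM in the 3 con-4c libraries and 197, 227 and 210.1 CPM in the con-2c libraries. In the knockdown the sums were 6518, 6840 and 6327 CPM for si-2c, and 134, 126 and 127 CPM for si-4c. The order of the groups was thus con-4c, si-2c, con-2c and si-4c, with no overlap between any neighbours in it. The si-2c mean of 6562 ± 259 CPM was 51.1% of the con-4c mean of 12836 ± 79.7 CPM, and 55.7% without the pair of genes with the highest means. The si-4c mean of 129 ± 4.32 CPM was 1.005% of the con-4c mean, and si-2c was 50.9 times si-4c (n = 3 each). With the scaling of the edgeR test (TMM) the si-2c sum was 46.99% of the con-4c sum. The TMM-scaled means were 5619 CPM for si-2c and 143.8 CPM for si-4c, a smaller distance than with column totals.

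**Figure D1:**
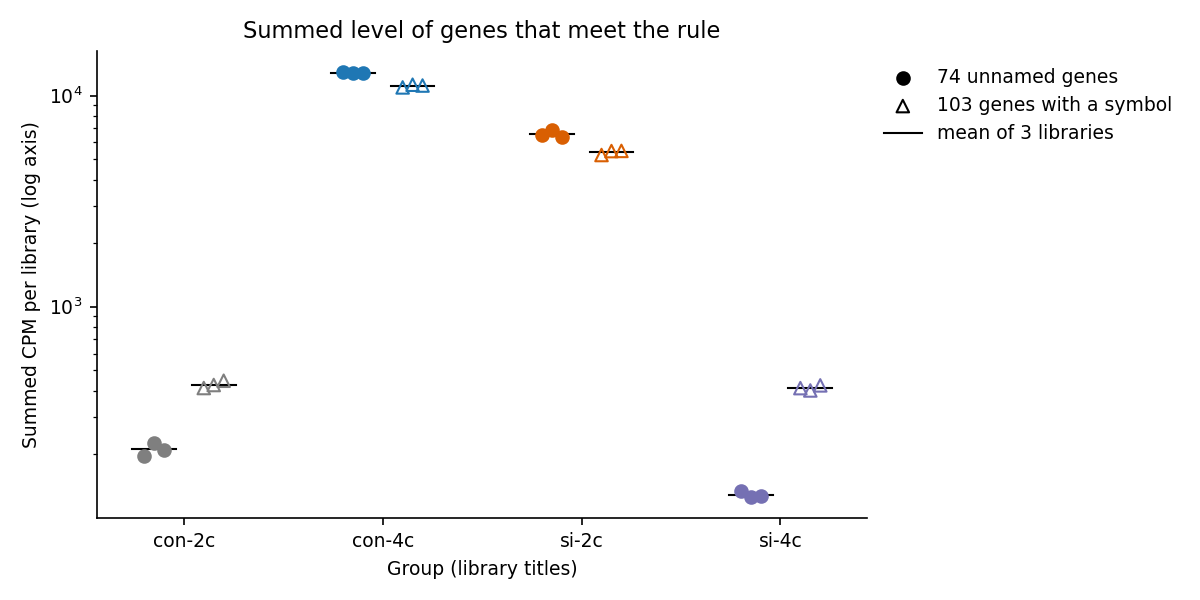
Summed CPM per library (log axis) of the 74 unnamed genes (filled circles) and of the 103 genes with a symbol that met the same thresholds (open triangles) in the 4 groups by title, with 1 point per library and the mean of 3 libraries as a line. The unnamed genes lay between 12765 and 12922 CPM for con-4c, between 6327 and 6840 in si-2c, and below 230 in con-2c and si-4c.

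To ask how these genes differed between the knockdown libraries, si-4c was compared with si-2c. All 74 were lower in si-4c. All 74 passed the filter on low counts and were called lower (edgeR quasi-likelihood test, adjusted p below 0.05 and at least a 2-fold change), and 0 were called higher, with 0 higher also by DESeq2 and at an unadjusted p below 0.05. Over the whole table of 17995 genes tested, 11.9% were called lower and 1.47% higher. Among unnamed genes tested, 19% were called lower and 0.925% higher, and among all genes with at least 20 CPM for con-4c 5.85% were called lower. Among the 485 unnamed genes tested that had this level but did not meet the fold requirement, the share called lower was 2.89%. The largest adjusted p of the 74 genes was 1.18e-04 (edgeR), for ENSSSCG00000016100. Their median log2 fold change, si-4c minus si-2c, was -6.54, against -0.13 over all genes tested, and their quartiles were -9.15 and -3.80. Every si-2c library was above every si-4c library in 74 of the 74 genes, which held for 45.4% of all genes tested.

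**Figure D2:**
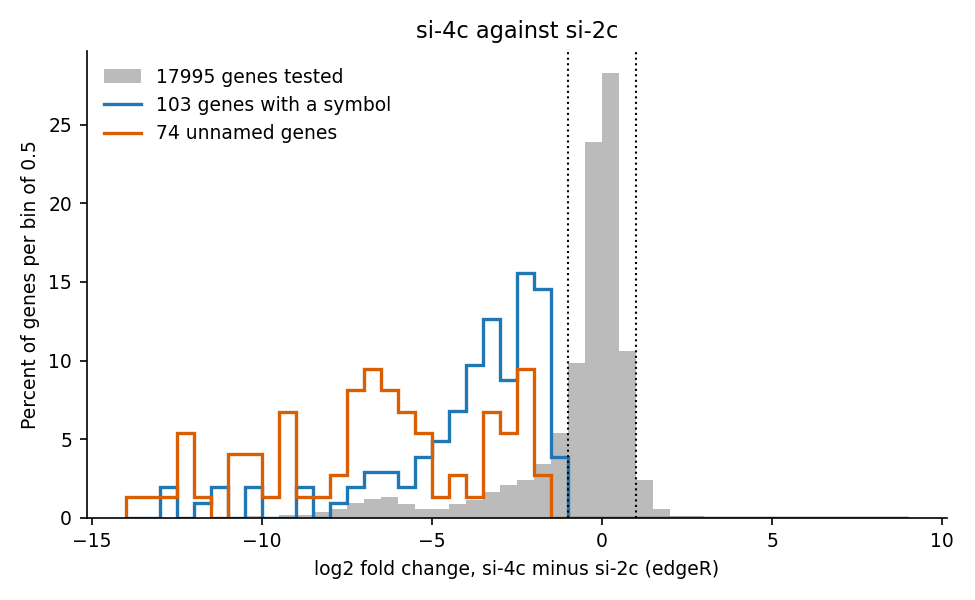
Distribution of the edgeR log2 fold change, si-4c minus si-2c, as percent of genes per bin of 0.5, for 17995 genes tested (grey), 103 genes with a symbol that met the same thresholds (blue) and the 74 unnamed genes (orange). Dotted lines mark a 2-fold change, and all 74 unnamed genes lie left of the lower one, with a median of -6.54.

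The genes with the highest con-4c means are given first. ENSSSCG00000028810 had 33.5, 42.7 and 38.1 CPM for con-2c and 2443, 2451 and 2534 CPM for con-4c. In the knockdown it had 945, 1102 and 1141 CPM for si-2c and 20.8, 16.6 and 16.2 CPM for si-4c. Its con-4c libraries were the highest, its si-2c libraries lay at 42.9% of them, and its si-4c libraries were below all con-2c libraries. The log2 fold change, si-4c minus si-2c, was -5.51 (SE 0.14, edgeR adjusted p 3.54e-14). ENSSSCG00000053554 had 17.4, 25.03 and 19.1 CPM for con-2c, 1926, 2022 and 1979 CPM for con-4c, 886, 904 and 694 CPM for si-2c, and 6.09, 6.06 and 9.15 CPM for si-4c. Here too no groups overlapped, and the log2 fold change in the knockdown was -6.49 (SE 0.20, edgeR adjusted p 2.99e-13). These genes together took 34.7% of the summed counts of the 74 genes in con-4c.

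ENSSSCG00000055659 had 2.36, 3.14 and 2.42 CPM for con-2c, 969, 904 and 879.5 CPM for con-4c, 476, 507 and 417 CPM for si-2c, and 0.444, 0.866 and 0.191 CPM for si-4c. The fall between the knockdown groups was 9.47 on the log2 scale for this gene (log2 fold change -9.47, SE 0.24, edgeR adjusted p 3.34e-14). ENSSSCG00000055570 kept more of its level, with 6.92, 9.11 and 9.13 CPM for con-2c and 5.69, 4.88 and 4.40 CPM for si-4c, against 679, 709 and 712 CPM for con-4c and 326, 360.0 and 267 CPM for si-2c. Its log2 fold change, si-4c minus si-2c, was -5.61 (SE 0.16, edgeR adjusted p 1.20e-13). In both genes the 3 si-2c libraries lay below the 3 con-4c libraries.

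ENSSSCG00000014931 had 5.89, 10.9 and 8.10 CPM for con-2c, 508, 497 and 508 CPM for con-4c, 272, 290 and 310 CPM for si-2c, and 2.66, 1.99 and 1.91 CPM for si-4c, so its si-4c libraries were below those of con-2c. ENSSSCG00000046061 had 3.48, 3.49 and 3.34 CPM for con-2c, 380, 337 and 347 CPM for con-4c, 191, 214 and 233 CPM for si-2c, and 0.601, 0.734 and 0.382 CPM for si-4c. The log2 fold changes in the knockdown were -6.67 (SE 0.20) and -8.14 (SE 0.16), with edgeR adjusted p of 2.21e-13 and 1.51e-15. In ENSSSCG00000049020, ENSSSCG00000036767, ENSSSCG00000033310, ENSSSCG00000052277 and ENSSSCG00000014930 the con-4c means were 248, 247, 208, 160 and 148 CPM, the si-2c means were 56.8%, 62.6%, 50.4%, 60.3% and 66.2% of them, and the si-4c means 0.314%, 0.494%, 0.405%, 0.994% and 0.459%. The rest of the 20 genes with the highest con-4c means are shown per library in the plot of CPM by gene.

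**Figure D3:**
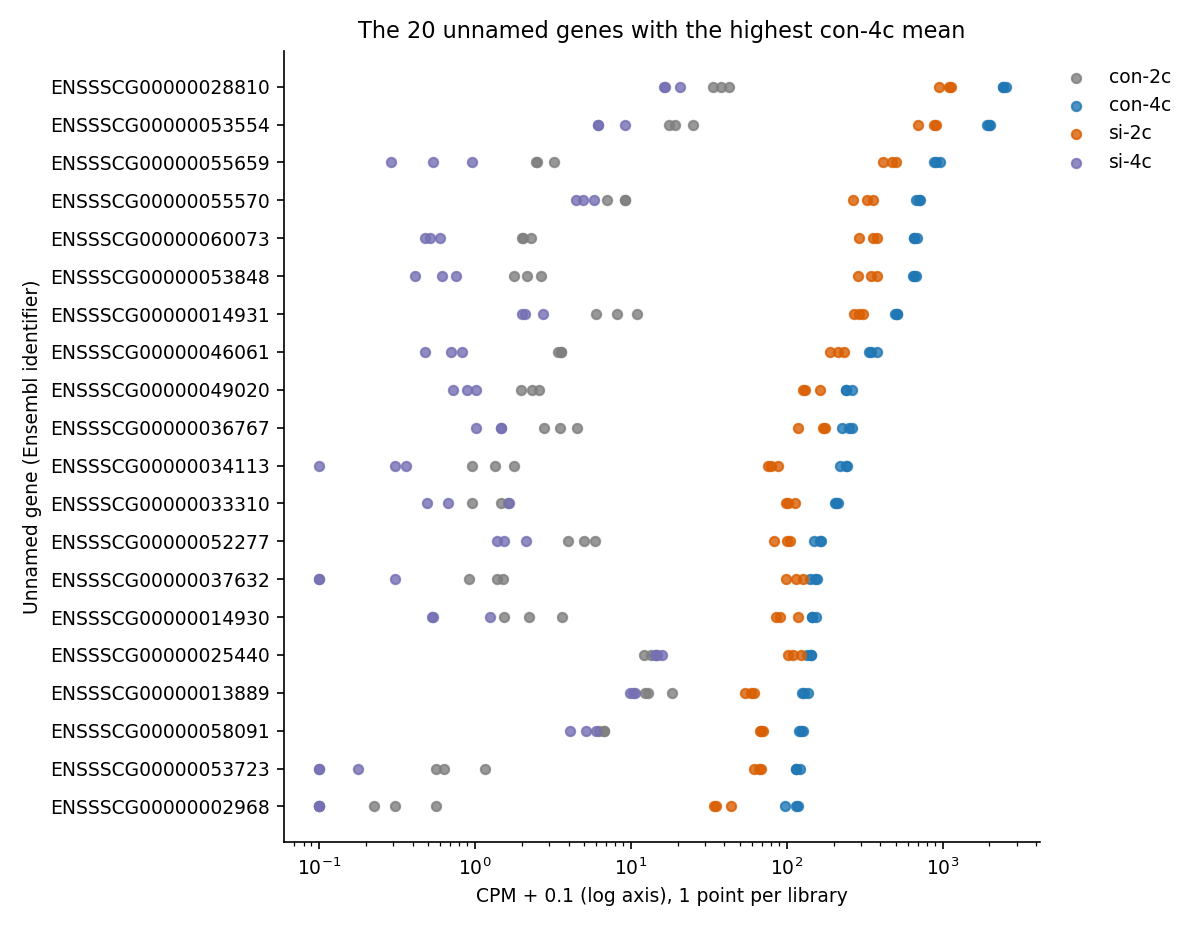
CPM + 0.1 (log axis) of the 20 unnamed genes with the highest con-4c mean, 1 row per gene and 1 point per library, coloured by group. In every row the 3 con-4c points and the 3 si-2c points lie to the right of all con-2c and si-4c points, and genes at 0 counts sit at 0.1.

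Some of the genes were not detected in si-4c at all. In 9 of the 74 genes no si-4c library had a count, where 3 counts over the 3 si-4c libraries, the limit that a count of 0 allows, would be 0.0265 CPM. ENSSSCG00000059870 had 0.489, 0.785 and 0.177 CPM for con-2c, 99.98, 94.9 and 98.5 CPM for con-4c, and 53.7, 55.9 and 54.0 CPM for si-2c, so its si-2c level was at least 2054-fold higher than in si-4c. ENSSSCG00000002968 had 0.462, 0.127 and 0.207 CPM for con-2c, 98.3, 118 and 115 CPM for con-4c, and 33.9, 35.3 and 43.9 CPM for si-2c, which is at least 1430-fold higher than si-4c. For ENSSSCG00000033480, ENSSSCG00000055205 and ENSSSCG00000061581 the same bounds were at least 1064-fold, 903-fold and 877-fold. Their edgeR adjusted p lay between 1.08e-11 and 3.73e-10 for these 5 genes. ENSSSCG00000048616 was at 0 counts in all con-2c libraries as well as all si-4c libraries, and had 26.6, 25.3 and 28.8 CPM for con-4c and 7.03, 6.04 and 10.8 CPM for si-2c. ENSSSCG00000053723 had 3 counts over the si-4c libraries, and its si-2c level was 2470 times that of si-4c with a 95% counting interval (Clopper-Pearson) of 845 to 11978. Such limits and intervals cover counting error only, since amplified reads are not independent molecules. These folds and bounds also rest on column totals. The scaling factors of the edgeR test (TMM) were 1.12 to 1.21 for si-2c and 0.871 to 0.915 for si-4c, so on that scale they would be smaller. The edgeR log2 fold change of ENSSSCG00000053723 was -10.7.

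At the other end were genes with smaller falls and with counts in every library. ELOA (ENSSSCG00000025440) had 13.3, 14.4 and 12.1 CPM for con-2c, 135, 144 and 143 CPM for con-4c, 124, 109.6 and 103 CPM for si-2c, and 14.2, 15.8 and 14.7 CPM for si-4c. The si-4c libraries of ELOA overlapped those of con-2c, its si-2c mean was 79.7% of the con-4c mean, and its log2 fold change in the knockdown was -2.53 (SE 0.11, edgeR adjusted p 3.80e-11). ENSSSCG00000013889 had 12.8, 12.3 and 18.3 CPM for con-2c, 137, 129 and 126 CPM for con-4c, 58.6, 61.4 and 54.05 CPM for si-2c, and 10.5, 10.2 and 9.83 CPM for si-4c. Its log2 fold change between the knockdown groups was -2.13 (SE 0.11, edgeR adjusted p 4.59e-10). ENSSSCG00000016100 had the smallest fall, from 7.81, 9.80 and 10.6 CPM for si-2c to 1.65, 1.63 and 3.52 CPM for si-4c, which is a log2 fold change of -1.68 (SE 0.26, edgeR adjusted p 1.18e-04). Its level was low in con-2c too, with 1.06, 1.49 and 0.975 CPM. For ENSSSCG00000033421, ENSSSCG00000015337 and ENSSSCG00000051162 the log2 fold changes were -1.99, -2.04 and -2.16. In all, 15 of the 74 genes kept at least 5% of the con-4c level in si-4c and 48 had under 1% of it.

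The genes that were low in con-2c were also low in si-4c, although these groups share no library. Of the 40 genes with a con-2c mean of at least 1 CPM, 27 had at least 1 CPM for si-4c, whereas 0 of the 34 genes below 1 CPM for con-2c had. The median log2 fold change, si-4c minus si-2c, was -4.56 in the first and -7.75 in the second of these sets. The si-4c level enters this change, so the medians restate the counts above and add no support to them. The share of all genes tested with the same likeness is not given here. Beyond this likeness, the level in si-4c tended to lie under that in con-2c. The summed si-4c level of 129 CPM was 61.1% of the con-2c sum of 211 CPM, 68.2% without the pair of genes with the highest means, and 60.3% with TMM-scaled CPM. Every con-2c library was above every si-4c library in 35 of the 74 genes, against 6.35% of all genes tested. The reverse held for 1 gene, ENSSSCG00000016100, against 6.72% of all genes tested. Since the rule asked for a low con-2c level, these counts are a description.

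The si-2c libraries fell short of con-4c by amounts that differed between genes. The si-2c mean was between 29.6% and 92.4% of the con-4c mean, with a median of 56.6%; in 20 genes it was under 50%, and in 15 at least 75%. The median was 55.8% in the 22 genes with at least 100 CPM for con-4c, 59.0% in the 18 genes with 50 to 100 CPM and 57.2% in the 34 genes below 50 CPM. ENSSSCG00000028810 and ENSSSCG00000053554, with the highest con-4c means, had 42.9% and 41.9%. The con-4c mean also divides these percentages, so no trend with abundance is read from them. The spread between replicates was smaller than the range over genes: the coefficient of variation had a median of 4.94% in con-4c and 11.6% in si-2c. Every con-4c library was above every si-2c library in 70 of the 74 genes (11.3% of all genes tested), and every si-2c library was above every con-2c library in 74 (43.2% of all genes tested). In all 74 genes every con-4c library was above every con-2c library, as the rule favours (38.5% of all genes tested), and in all 74 this held together with every si-2c library above every si-4c library (28.5%). The con-4c and con-2c libraries served the rule, so nothing is read from these counts.

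Among the genes with the lowest share in si-2c, ENSSSCG00000034113 had 242, 220 and 240.2 CPM for con-4c and 79.6, 75.6 and 87.6 CPM for si-2c, which is 34.6% ± 2.61 of the con-4c mean (SD over 3 si-2c libraries). ENSSSCG00000002968 had 34.1% ± 4.85, ENSSSCG00000031083 31.7% ± 2.46, ENSSSCG00000035189 30.4% ± 8.84 and ENSSSCG00000048616 29.6% ± 9.31. At the high end, ENSSSCG00000040680 had 94.4, 90.8 and 93.5 CPM for con-4c and 88.0, 79.1 and 86.0 CPM for si-2c, or 90.8% ± 5.05. ENSSSCG00000003444, ENSSSCG00000055083 and ENSSSCG00000063473 had 85.8% ± 10.004, 82.8% ± 5.11 and 80.0% ± 9.17. In ENSSSCG00000034651, at 92.4% ± 13.9, the si-2c libraries at 19.1, 23.4 and 25.8 CPM overlapped the con-4c libraries at 25.7, 24.02 and 24.2 CPM. In si-4c no library of these 10 genes was above 0.5 CPM, except for ENSSSCG00000031083, which had 1.67, 1.78 and 1.31 CPM there, and ENSSSCG00000035189, which had 0.183, 0 and 1.09 CPM.

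**Figure D4:**
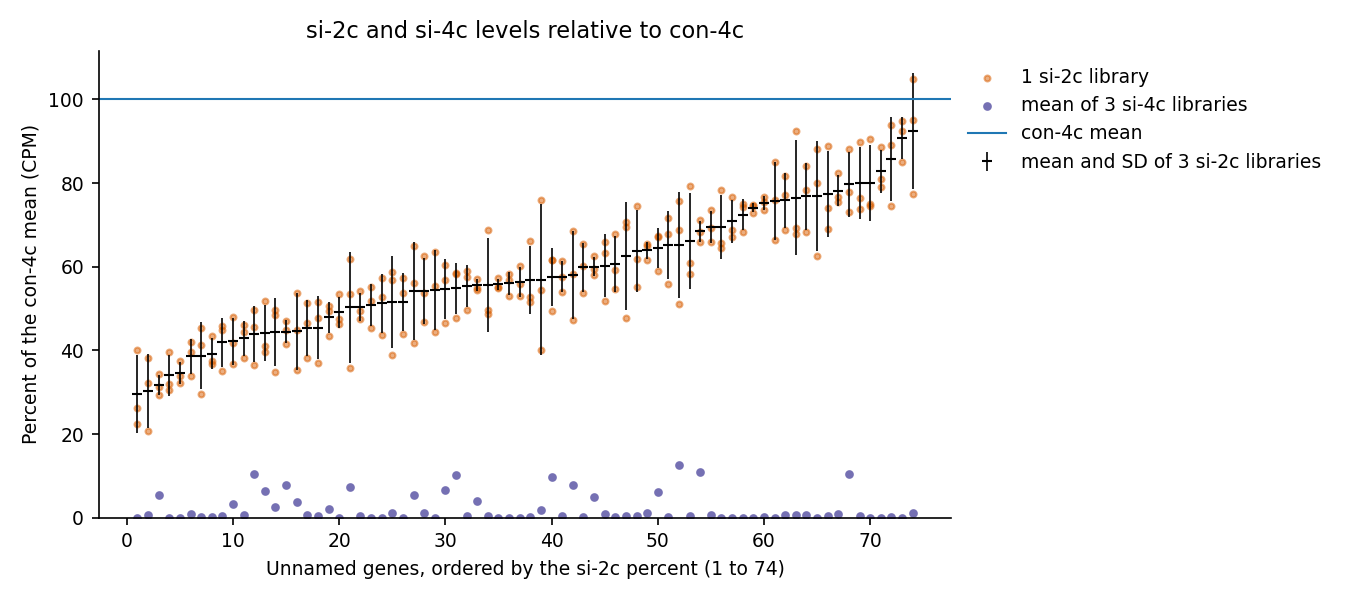
The si-2c libraries (orange points, with mean and SD of 3 libraries in black) and the si-4c mean (purple) as percent of the con-4c mean (blue line at 100) for the 74 unnamed genes, ordered by the si-2c mean. The si-2c means rise from 29.6% to 92.4%, and the si-4c means stay at or below 12.6%.

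The counts of some of these genes kept a nearly fixed ratio to each other. Over the 6 libraries of con-4c and si-2c, the ratio of the counts of ENSSSCG00000060073 and ENSSSCG00000053848 stayed between 0.999 and 1.02. Their counts were 18972 and 18821, 18630 and 18650, and 18850 and 18729 in the con-4c libraries, and 12385 and 12152, 12661 and 12579, and 11262 and 11132 in the si-2c libraries. The SD of the log2 ratio was 0.00957, below the 0.0169 that counting alone gives, so the counts of these genes agree within sampling noise in every one of these libraries. In con-2c they had 72 and 76, 75 and 67, and 74 and 87 counts, and in si-4c 16 and 12, 19 and 25, and 14 and 19. The genes fell together from si-2c to si-4c, with log2 fold changes of -9.24 (SE 0.16) and -9.03 (SE 0.19) and edgeR adjusted p of 6.96e-16 and 3.26e-15.

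Over the 2701 pairs that the 74 genes form, the median SD of the log2 ratio was 0.30, and 8 pairs were below 0.05; the pairs were singled out after their values were seen. ENSSSCG00000057084 and ENSSSCG00000036400 had a ratio between 1.37 and 1.43, with an SD of 0.0282 against 0.0438 from counting. ENSSSCG00000015337 and ENSSSCG00000053801 had a ratio between 0.992 and 1.06, with an SD of 0.0399 against 0.0626 from counting, but not in con-2c, where they had 174 and 101, 181 and 107, and 147 and 103 counts. ENSSSCG00000055205 and ENSSSCG00000061581, both undetected in si-4c, had a ratio between 0.983 and 1.08. Not all of the 8 pairs were within counting noise: ENSSSCG00000055659 had an SD of 0.0453 with ENSSSCG00000053848 and 0.0458 with ENSSSCG00000060073, which is 2.89 and 2.93 times that from counting, and ENSSSCG00000058091 with ENSSSCG00000059870 had 1.19 times. The last of the 8, ENSSSCG00000033310 with ENSSSCG00000044849, had 0.795 times. How reads that match several genes were counted is not given in the sources used here, so such pairs may share reads as near-identical copies or overlapping genes, and the values of their members are uncertain for that reason; this was not tested, since no sequence or position was at hand.

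**Figure D5:**
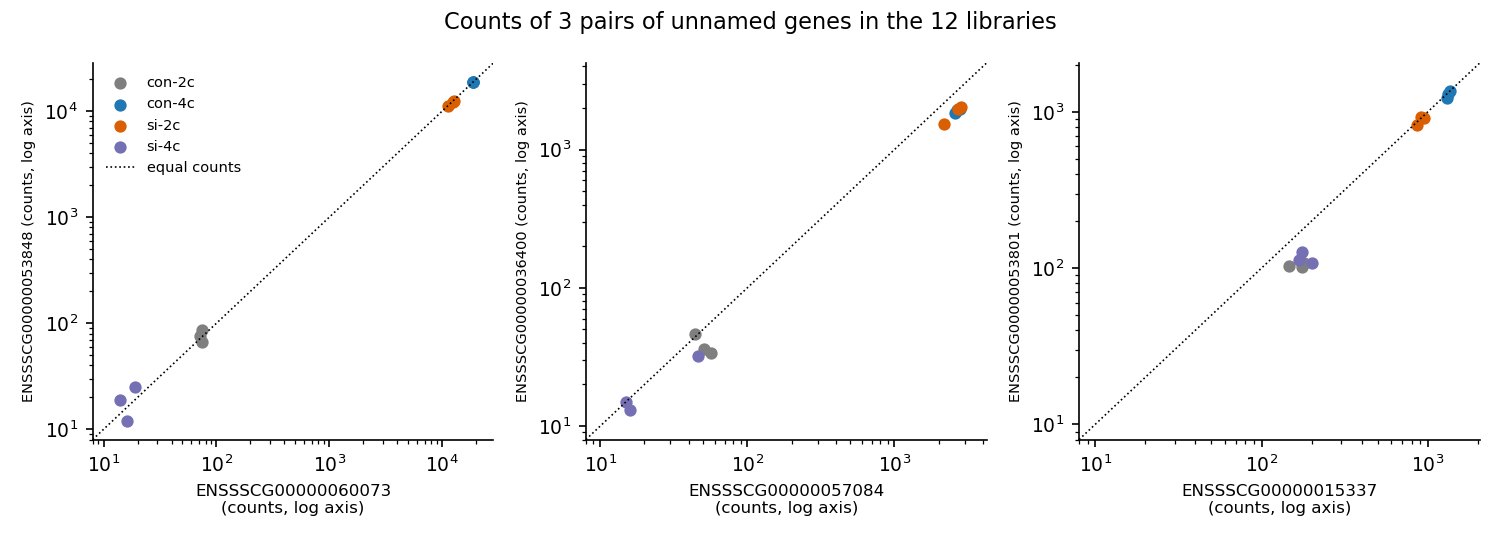
Counts (log axes) of 3 pairs of unnamed genes in the 12 libraries, coloured by group, with a dotted line at equal counts. ENSSSCG00000060073 and ENSSSCG00000053848 lie on the line in con-4c and si-2c, with a ratio between 0.999 and 1.02, while ENSSSCG00000015337 and ENSSSCG00000053801 leave it in con-2c and si-4c.

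The same thresholds were met by 103 genes with a symbol, which were used to see where the unnamed genes differed. All 103 were likewise called lower in the si-4c libraries (edgeR), with a median log2 fold change of -3.33, a smaller fall than the -6.54 of the unnamed genes. Their si-2c means were at a median of 51.7% of con-4c, near the 56.6% of the unnamed genes. Their si-4c means were at a median of 3.81% of con-4c, against 0.457% in the unnamed genes, and their con-2c means at 4.40% against 1.42%. Their summed level was 413 ± 11.5 CPM for si-4c and 428 ± 17.1 CPM for con-2c, or 96.3%, where the unnamed genes had 61.1%. Every con-2c library was above every si-4c library in 13 of the 103 genes. These figures describe the lists, and the difference between them was not tested.

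Known genes of activation gave a frame for the size of these changes. Of 30 listed markers and regulators of ZGA 17 were in the table under those symbols and all 17 were tested. Between the knockdown groups 9 of the 17 were called lower in si-4c and 0 higher (edgeR), and of the other 8, 4 had an adjusted p below 0.05 but less than a 2-fold change. These were OTX2 and YAP1, with log2 fold changes of 0.61 and 0.59 (edgeR adjusted p 5.04e-04 and 2.86e-04), and SP1 and NFYA, with -0.94 and -0.80 (edgeR adjusted p 0.00447 and 8.85e-05). The last 4 were TEAD4, DPPA4, KLF5 and KDM6B, with log2 fold changes of -0.71, -0.49, -0.10 and -0.01 and edgeR adjusted p of 0.513, 0.211, 0.777 and 0.969. MYC, a transcription factor of growth and proliferation, had 10.97 CPM for con-4c, 6.40 CPM for si-2c and 0.0819 CPM for si-4c, and its log2 fold change of -5.89 (SE 0.65, edgeR adjusted p 3.01e-06) was the nearest of the 17 to the median of the unnamed genes. KLF17, a Kruppel-like transcription factor of early embryos, had the most negative change of the list, with 42.8 CPM for con-4c, 22.7 CPM for si-2c and 0.0455 CPM for si-4c, a log2 fold change of -8.52 between the latter (SE 0.47, edgeR adjusted p 6.21e-10). DPRX, a paired-type homeobox gene, had 26.4, 7.20 and 0.123 CPM in these groups (log2 fold change -5.44, SE 0.50, edgeR adjusted p 3.84e-07). EIF1AX, a translation initiation factor, and DPPA2, a chromatin-associated factor of pluripotent cells, had the smaller log2 fold changes of -1.16 and -1.14 (SE 0.09 and 0.12, edgeR adjusted p 4.26e-08 and 1.15e-06). EIF1AX had means of 29.3 CPM for con-2c, 187 CPM for con-4c, 104 CPM for si-2c and 35.99 CPM for si-4c, and DPPA2 had 32.7, 184, 102 and 35.6 CPM in the same order. The median of the 17 genes was -1.14, against -6.54 for the 74 unnamed genes, which were chosen for a large change in the control embryos while this list was not.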

How the data were processed

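The authors deposited 1 table of raw, unnormalized counts for 12 SMART-seq libraries. The submitters' processing notes name cutadapt 1.9, HISAT2 2.2.1, StringTie 2.1.6, DESeq2, edgeR and Sscrofa11.1; annotation release, strand and the counting of multimapping reads are not given in the sources used here. The members, lists and tests were chosen with earlier results of these data known.

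CPM was the count over the column total. The test on counts used edgeR 4.0.16 under R 4.3.3: filterByExpr (17995 genes), TMM scaling, 1 quasi-likelihood model with 4 group means over all 12 libraries (common dispersion 0.0745), and Benjamini-Hochberg adjustment over all genes tested. Calls needed an adjusted p under 0.05 together with a log2 fold change of 1 or more in size. The script was tested on simulated data. DESeq2 1.42.0, library totals, other filters, the 6 si libraries alone, a replicate block, other thresholds and leaving out each library were tried. No replicates agreed within sampling noise (chi-square over its degrees of freedom, 7.27 to 38.7). By the study's methods the 3 libraries of a group came from separate sets of pooled embryos; whether the sets came from separate fertilisations or injections is not given in the sources used here, so p-values measure the spread between these sets. Genes were named by fixed rules: the 20 highest con-4c means, the 5 most and 5 least negative changes in si-4c against si-2c, the 5 lowest and 5 highest si-2c percentages, and genes with a reference symbol; pairs and further genes were chosen after their values were seen. A planned search for promoter motifs was not run, since no sequences were at hand, and for the same reason no sequence is printed.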

Additional observations from a re-analysis of the deposited data

Results flagged for a closer look

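The change between the title stages had opposite directions in control and knockdown libraries. In 74 of the 74 genes every con-4c library was above every con-2c library and every si-4c library was below every si-2c library, which held for 28.5% of all genes tested. The rule fixed the direction in the control libraries, and the difference between the directions was not tested. The titles and tissue labels of all 12 libraries disagree on the stage.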

How the results depend on the processing

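The count of 74 genes called lower and 0 higher in si-4c against si-2c was the same under library totals, DESeq2, both filters, the 6 si libraries alone and each left-out library. At an adjusted p below 0.01 and at least a 4-fold change 72 were called lower and 0 higher, and the exceptions were ENSSSCG00000016100 and ENSSSCG00000033421. The replicate block also gave 74 lower and 0 higher, with a median log2 fold change of -6.56. Same-numbered libraries showed no strong shared deviation (18 correlations between -0.05 and 0.03). In 8 of the 18 comparisons a library correlated best with its own number. These correlations over many noisy genes cannot settle whether the numbers pair the libraries. The median of -6.54 became -6.92 under library totals, which moved the median of all genes tested from -0.13 to -0.51, and lay between -6.73 and -6.32 without 1 library. The 648 recomputed values of the 36 named genes kept their direction and call, with adjusted p up to 0.00119. With TMM-scaled CPM 69 genes met the rule, and the medians were 51.9% for si-2c and 0.544% for si-4c, where column totals gave 56.6% and 0.457%. Without 1 library the number of genes was 74 or 75 and these medians lay between 56.2% and 58.0% and between 0.442% and 0.534%. A con-4c minimum of 10 CPM gave 117 genes and one of 50 CPM gave 40. The cause of these shifts was not tested. Depth limits the lowest levels: 11 genes had 0 to 3 counts over the si-4c libraries.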
